A study of Mus musculus with 12 samples.

Results

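Stromal niche signals for crypts are secreted factors and marker genes of the connective tissue cells that lie under the colonic epithelium. The 9 genes described here are Grem1, Chrd, Bmp2, Bmp4, Bmp5, Wnt5a, Rspo3, Pdgfra and Foxl1, taken from the deposited count table by gene name. They are 9 of 54532 genes in that table, and all 9 were among the 16904 genes that passed the filter on low counts. RNA-Seq covered colon tissue of 12 male WT C57BL/6J mice, aged 5 weeks at the start, in 4 groups of 3. Colitis was brought on with DSS (dextran sodium sulfate, which damages the lining of the gut) in every group but the control group. The model group had DSS alone, the Rhy group DSS with the alkaloid rhynchophylline, and the DXM group DSS with the glucocorticoid dexamethasone at 4 mg/kg. The protocol lists Rhy at 2, 4 and 8 mg/kg, and the dose given to the sequenced mice is not stated. Total counts per library ran from 14346478 (Rhy 1) to 17749716 (DXM 2).

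Crypt stem cells divide under Wnt signals and differentiate under bone morphogenetic protein (BMP) signals. Fibroblasts near the crypt base secrete BMP antagonists and R-spondins, which hold BMP low and Wnt high there, while subepithelial fibroblasts with long processes (telocytes) near the crypt top secrete BMP ligands and Wnt5a. Foxl1 and high Pdgfra mark telocytes, and Grem1 marks fibroblasts of the crypt base (trophocytes). In sections of whole colon, fewer cells of a type and less RNA per cell cannot be told apart.

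Libraries stood apart within 3 of the groups. Hoxb13, a homeobox gene of the most distal colon, was read at 155, 72 and 0.165 CPM (counts scaled to library size with TMM factors) in control 1, 2 and 3. It was read at 226, 205 and 1.49 CPM in model 1, 2 and 3, and at 221, 195 and 236 CPM in DXM 1, 2 and 3. Rhy 2 and Rhy 3 had 316 and 230 CPM of Hoxb13, while Rhy 1 had a count of 0, which allows up to 3 counts. Control 3, model 3 and Rhy 1 were thus far below the other 9 libraries in this gene. The labels do not say from which part of the colon a section came. Within groups, the share of counts from mitochondrial genes ran from 6.33% to 21% in control and from 7.48% to 25.7% in DXM. It ran from 8.9% to 23.8% in Rhy and from 11.1% to 14% in model. Model 1 and model 2 were more alike than any other pair of libraries: their common dispersion, the variance beyond counting noise, was 0.00201, against 0.0604 or more in the other 65 pairs. Both are labelled as separate samples and both were kept. The p-values measure the spread between these samples, and that each is a separate mouse rests on the labels alone.

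Promoters are shown because several of these genes were high in the same libraries. Of the 9 members, 5 were matched to a promoter in the RefSeq (GRCm38.p6) file used, Grem1, Chrd, Bmp4, Bmp5 and Pdgfra, and the promoters of the others were not analysed here. The 250 bases before the start are printed for Grem1 (chr2:113758649-113758898, minus strand), Chrd (chr16:20732877-20733126, plus strand), Bmp4 (chr14:46390670-46390919, minus strand) and Pdgfra (chr5:75152001-75152250, plus strand). Capitals mark matches to a GC box (GGGCGG) or a CCAAT box (CCAAT) on either strand.
Grem1: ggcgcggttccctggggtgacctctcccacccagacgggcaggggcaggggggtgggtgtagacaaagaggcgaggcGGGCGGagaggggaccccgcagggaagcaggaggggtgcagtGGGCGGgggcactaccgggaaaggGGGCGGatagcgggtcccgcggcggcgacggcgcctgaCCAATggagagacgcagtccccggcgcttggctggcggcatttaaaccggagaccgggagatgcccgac
Chrd: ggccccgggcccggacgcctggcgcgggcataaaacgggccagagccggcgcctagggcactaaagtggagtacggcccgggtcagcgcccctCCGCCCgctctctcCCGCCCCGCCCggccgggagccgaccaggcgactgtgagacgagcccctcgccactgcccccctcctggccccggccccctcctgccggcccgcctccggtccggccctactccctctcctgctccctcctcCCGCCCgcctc
Bmp4: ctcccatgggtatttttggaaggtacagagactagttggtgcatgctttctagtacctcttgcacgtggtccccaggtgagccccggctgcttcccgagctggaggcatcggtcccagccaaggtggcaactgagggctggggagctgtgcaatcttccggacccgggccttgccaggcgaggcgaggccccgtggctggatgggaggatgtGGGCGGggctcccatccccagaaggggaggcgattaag
Pdgfra: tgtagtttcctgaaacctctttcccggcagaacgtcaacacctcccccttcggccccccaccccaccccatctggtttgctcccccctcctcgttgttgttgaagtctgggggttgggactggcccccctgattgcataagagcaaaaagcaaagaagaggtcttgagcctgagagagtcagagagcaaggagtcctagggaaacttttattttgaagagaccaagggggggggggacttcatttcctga

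The Grem1 promoter was 72% G and C with 24 CG steps, 3 GC boxes and 1 CCAAT box. The Chrd promoter was 78% G and C with 28 CG steps and 4 GC boxes, of which 2 overlap by 1 base. The Bmp4 promoter was 63.2% G and C with 11 CG steps and 1 GC box. The Pdgfra promoter (54.4% G and C) and the Bmp5 promoter (42.8%) had 4 CG steps each and neither motif. Across 32851 promoters of this length in that file the medians were 52.4% G and C and 6 CG steps, and 32.7% held a GC box and 33.8% a CCAAT box. None of these 5 promoters held any of 6 other motifs searched on both strands. These were TATAAA (in 12.4% of all promoters), the glucocorticoid receptor core AGAACA (16.1%), the aryl hydrocarbon receptor core GCGTG (28.2%), the forkhead core GTAAACA (3.17%), the AP-1 site TGACTCA (4.46%) and the E box CAGCTG (13%). A match of letters is a description of this window only.

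Levels of the 9 members were compared per gene length, as the authors' FPKM. Bmp2 had the highest median over the 12 libraries (10.2 FPKM), followed by Bmp4 (9.21), Grem1 (6.59), Pdgfra (3.07), Wnt5a (1.39), Rspo3 (1.14), Chrd (1.09), Foxl1 (0.917) and Bmp5 (0.407). Among neighbours in that order, mean FPKM differed by more than the larger of their standard deviations between Pdgfra (3.03 ± 1.31, SD, n = 12) and Wnt5a (1.54 ± 0.487), and between Foxl1 (1.11 ± 0.536) and Bmp5 (0.557 ± 0.383). The other neighbours did not differ beyond their spread. The order pools the groups: by group mean FPKM, Bmp2 was highest in control (14.8), Bmp4 in model (6.6, beside 6.41 for Bmp2), and Grem1 in Rhy (10.1) and DXM (19.2). Grem1 was the most variable member on the CPM scale, with 33.8 times as much in DXM 3 as in control 3. Wnt5a was the least variable, with 2.99 times as much in control 3 as in Rhy 2. Raw counts were lowest for Bmp5, at 8 to 101 reads per library, and for Foxl1, at 14 to 93.

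**Figure D1:**
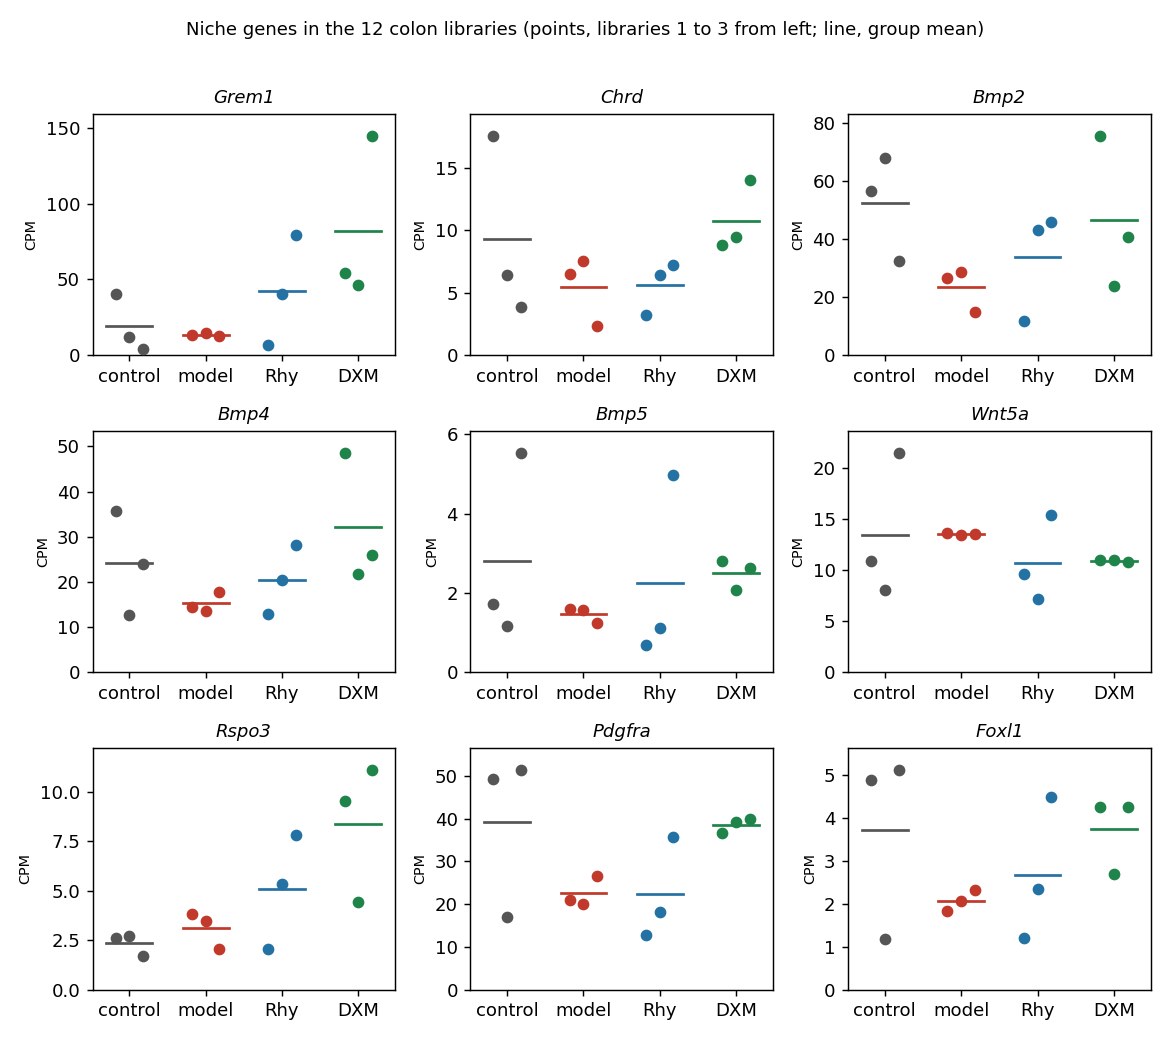
CPM of the 9 members in each library (points, libraries 1 to 3 from left) with group means (lines), n = 3 a group. All 3 DXM points of Grem1 (46.2 to 145 CPM) lie above its 3 model points (12.4 to 15 CPM).

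Comparing the model group with the control group shows where niche transcripts stood after DSS. DSS strips the epithelium from the crypts, and repair then depends on stem cells that the stroma supplies with Wnt signals. Bmp2 was the member with the smallest p-value here, and it encodes a BMP ligand made in the upper crypt. Bmp2 (2:133552159-133562885, ENSMUSG00000027358) was read at 56.6, 67.7 and 32.4 CPM in control 1, 2 and 3 and at 26.7, 28.8 and 14.9 CPM in model 1, 2 and 3. Every model library was below every control library. The difference was -1.15 on the log2 scale (SE 0.523), or 2.23-fold lower, with an unadjusted edgeR p of 0.0478 and an adjusted p of 0.516. Over 16 alternatives the unadjusted p was under 0.05 in 6. It was not with upper-quartile scaling, a block on library number, limma on FPKM, or model 1 and model 2 summed. An exact permutation test gave 0.1, the smallest p that 3 libraries against 3 allow.

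The other members overlapped between these groups. Pdgfra was read at 49.3, 17 and 51.4 CPM in the control libraries and at 21, 20.1 and 26.7 CPM in the model libraries. Control 2 was below all 3 model libraries for Pdgfra, and its log2 difference was -0.80 (unadjusted p 0.0766). Differences were -0.66 for Bmp4, -0.94 for Bmp5, -0.76 for Chrd, -0.85 for Foxl1 and -0.48 for Grem1, against 0.41 for Rspo3 and 0.0012 for Wnt5a. Of the 9 members, 7 were lower in the model group, and without control 1 Grem1 was higher instead (0.72). The median over the members was -0.757, against 0.00635 over all 16904 genes tested.

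Calls against control were few among the members. By edgeR, 0% of all genes and 0 of 9 members passed an adjusted p of 0.05 in this comparison. DESeq2 called 46 genes and limma on FPKM 0. At an unadjusted p under 0.05, 9.62% of all genes and 1 of 9 members (Bmp2) were called, and 17% of all genes and 1 of 9 members had groups that did not overlap. Both shares of the members are near the background of all genes. The members called were 0 without control 1 or without any 1 of the model libraries, and 3 without control 2. The genes called of 16904 were 1626 with all libraries, 1688 without control 1, 1096 without control 2, 2811 without control 3, 888 without model 1, 901 without model 2 and 1386 without model 3. With control 3, model 3 and Rhy 1 left out together, an alternative chosen after seeing the data, Bmp2 had a log2 difference of -1.20.

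Comparing the DXM group with the model group shows the niche transcripts under a glucocorticoid in DSS-treated colon. Glucocorticoids act through a nuclear receptor that fibroblasts, leukocytes and epithelial cells all carry. Grem1 encodes gremlin 1, which binds BMP ligands outside the cell and keeps them from their receptors. Grem1 (2:113746164-113758646, ENSMUSG00000074934) was read at 54.5, 46.2 and 145 CPM in DXM 1, 2 and 3 and at 13.5, 15 and 12.4 CPM in model 1, 2 and 3. All 3 DXM libraries were above all 3 model libraries, and DXM 3 was well above the others. The difference was 2.59 on the log2 scale (SE 0.871), or 6-fold, with an unadjusted edgeR p of 0.012 and an adjusted p of 0.622. Without DXM 3 it was 1.89 (unadjusted p 0.0564), and without model 3 it was 2.54 (unadjusted p 0.0361). Over 16 alternatives its adjusted p ran from 0.179 to 1.

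Chrd encodes chordin, a second BMP antagonist, and its levels were lower than those of Grem1 per gene length. Chrd (16:20733127-20742384, ENSMUSG00000006958) was read at 8.85, 9.45 and 14 CPM in the DXM libraries and at 6.51, 7.52 and 2.38 CPM in the model libraries. The groups did not overlap. The log2 difference was 0.98 (SE 0.562, unadjusted p 0.108, adjusted p 0.684). Thpo lies over part of Chrd on the other strand, with 1046 counts over the 12 libraries beside 1544 for Chrd, and the use of strand in counting is not stated.

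Rspo3 encodes R-spondin 3, which binds Lgr receptors and keeps Wnt receptors on the cell surface. Rspo3 (10:29452416-29535867, ENSMUSG00000019880) was read at 9.53, 4.43 and 11.1 CPM in the DXM libraries and at 3.81, 3.46 and 2.03 CPM in the model libraries. All DXM libraries were above all model libraries, DXM 2 by the least. The log2 difference was 1.43 (SE 0.494), or 2.7-fold, with an unadjusted edgeR p of 0.0137 and an adjusted p of 0.622. Without model 3 it was 1.22 (unadjusted p 0.0509), and without DXM 3 it was 1.17 (unadjusted p 0.0558). Wnt5a encodes a ligand that signals largely without beta-catenin. Wnt5a (14:28504750-28527448, ENSMUSG00000021994) was read at 11, 11 and 10.8 CPM in the DXM libraries and at 13.6, 13.4 and 13.5 CPM in the model libraries. The groups did not overlap, with DXM lower by a small step. Its log2 difference was -0.30 (SE 0.352, unadjusted p 0.406, adjusted p 0.836).

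Bmp4 encodes a BMP ligand of subepithelial fibroblasts. Bmp4 (14:46383520-46390669, ENSMUSG00000021835) was read at 48.6, 21.7 and 25.9 CPM in the DXM libraries and at 14.4, 13.7 and 17.8 CPM in the model libraries. The groups did not overlap, and DXM 1 was the highest. The log2 difference was 1.07 (SE 0.408), or 2.1-fold, with an unadjusted edgeR p of 0.0227 and an adjusted p of 0.637. Without DXM 1 it was 0.64 (unadjusted p 0.14), and without model 3 it was 1.21 (unadjusted p 0.0296). Bmp2 was read at 75.6, 23.7 and 40.6 CPM in the DXM libraries, so that DXM 2 was below model 1 and model 2. Its log2 difference was 0.99 (SE 0.521, unadjusted p 0.0827, adjusted p 0.666). Bmp5 (9:75775364-75900310, ENSMUSG00000032179), a ligand of telocytes, was read at 2.81, 2.07 and 2.63 CPM in the DXM libraries and at 1.6, 1.58 and 1.25 CPM in the model libraries. Its groups did not overlap, and its log2 difference was 0.76 (unadjusted p 0.308).

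Pdgfra encodes the receptor for PDGF-A, a growth factor made by the epithelium. Pdgfra (5:75152292-75198215, ENSMUSG00000029231) was read at 36.7, 39.1 and 39.9 CPM in the DXM libraries. These lay close together and above the 3 model libraries. The log2 difference was 0.77 (SE 0.409, unadjusted p 0.0854, adjusted p 0.669). Foxl1 encodes a forkhead transcription factor. Foxl1 (8:121127940-121130644, ENSMUSG00000097084) was read at 4.25, 2.7 and 4.25 CPM in the DXM libraries and at 1.82, 2.06 and 2.32 CPM in the model libraries. Its groups did not overlap, and the log2 difference was 0.85 (unadjusted p 0.154).

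No member passed the adjusted threshold in this comparison. By edgeR, 0% of all genes and 0 of 9 members passed an adjusted p of 0.05, while DESeq2 called 52 genes and limma 2 on log2(FPKM + 0.1) and 0 on log2(FPKM + 1). At an unadjusted p under 0.05, 3 of 9 members (Grem1, Rspo3 and Bmp4) were called, all higher, beside 7.69% of all genes in either direction and 4.89% in the higher one. In a fit of only these groups 8 of 9 members and 2514 genes were called, against 1300 genes in the fit of all libraries. The fit of only these groups takes its spread from the DXM and model libraries alone. Among these are model 1 and model 2, with a common dispersion of only 0.00201, and their part in the larger number of calls was not tested. Of the 9 members, 7 were higher without overlap, where 10.4% of all genes were, and Wnt5a was lower without overlap, where 12.2% were. In either direction that is 8 of 9 members beside 22.6% of all genes. The median log2 difference of the members was 0.977, against -0.0149 over all genes. All 144 values of the 9 members under 16 alternatives kept their direction. Without DXM 3 the members called came to 1 and the genes to 537, and the genes came to 775 without model 1 and 771 without model 2. With control 3, model 3 and Rhy 1 left out together, 3 members and 1572 genes were called, with log2 differences of 2.53 for Grem1, 1.21 for Rspo3 and 1.21 for Bmp4.

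**Figure D2:**
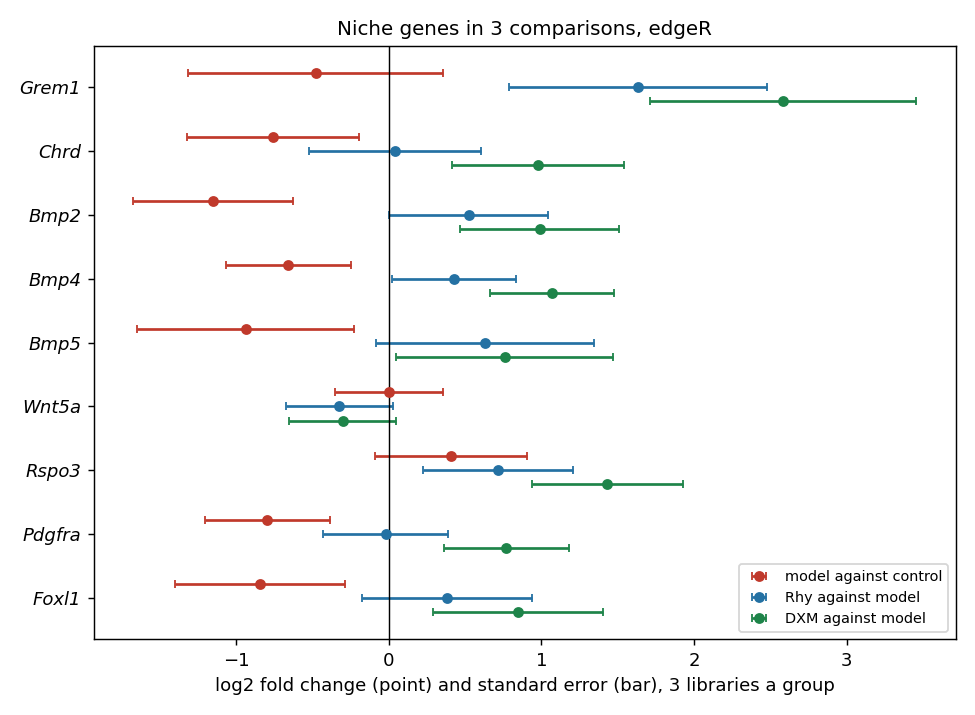
Log2 fold change (points) with standard error (bars) of the 9 members in 3 comparisons by edgeR, 3 libraries a group. In the DXM comparison 8 members lie to the right of 0 and Wnt5a lies at -0.30.

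Comparing the Rhy group with the model group shows the same transcripts under the alkaloid. Rhynchophylline comes from Uncaria plants. Grem1 was read at 6.51, 40.7 and 79.3 CPM in Rhy 1, 2 and 3. Rhy 1 was below all 3 model libraries, and the other Rhy libraries were above them. The log2 difference was 1.63 (SE 0.846, unadjusted edgeR p 0.0781, adjusted p 1). With control 3, model 3 and Rhy 1 left out, it was 2.10 (unadjusted p 0.0124, adjusted p 0.549). Over 16 alternatives it ran from 0.798 (without Rhy 3) to 2.14 (without Rhy 1), with an unadjusted p under 0.05 in 3.

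Of the other members, Bmp2, Bmp4 and Foxl1 were divided as Grem1 was, with Rhy 1 below and the other Rhy libraries above all 3 model libraries. Rspo3 was read at 2.05, 5.35 and 7.81 CPM (log2 difference 0.72, SE 0.491, unadjusted p 0.17). Bmp2 was read at 11.9, 43.2 and 45.8 CPM, Bmp4 at 12.9, 20.4 and 28.2 CPM, and Foxl1 at 1.2, 2.35 and 4.47 CPM. Pdgfra was read at 12.9, 18.2 and 35.7 CPM, with Rhy 3 above and the others below the model libraries. Chrd was read at 3.25, 6.4 and 7.19 CPM, within the range of the model group. Bmp5 was read at 0.685, 1.11 and 4.98 CPM and Wnt5a at 9.67, 7.18 and 15.4 CPM, each with Rhy 3 above and the others below the model libraries.

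By edgeR, 0% of all genes and 0 of 9 members passed an adjusted p of 0.05 between Rhy and model, while DESeq2 called 5 genes and limma 2 on log2(FPKM + 0.1) and 0 on log2(FPKM + 1). At an unadjusted p under 0.05, 0 of 9 members were called, beside 3.72% of all genes (628). No member had groups without overlap, where 11.5% of all genes did. The median log2 difference of the members was 0.427, against -0.0148 over all genes. Without Rhy 1, 2 members were called and 1066 genes. The genes called came to 289 without model 1, 293 without model 2 and 1007 without model 3. Whether the Rhy and DXM groups differed from each other in these genes was not tested, and both comparisons share the model libraries.

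Against the control group, 2 members had an unadjusted p under 0.05 in a treated group, Grem1 in DXM and Rspo3 in DXM and Rhy. Grem1 was 2.11 higher on the log2 scale in DXM than in control (SE 0.856, 4.3-fold, unadjusted p 0.0304, adjusted p 0.221), with no overlap. Over 16 alternatives this difference ran from 1.41 (without DXM 3) to 3.31 (without control 1), with an unadjusted p under 0.05 in 12. The control libraries had 40.7, 12.3 and 4.28 CPM of Grem1, of which control 1 came near DXM 2. Between Rhy and control Grem1 differed by 1.15 with overlap (unadjusted p 0.193, adjusted p 0.6). Rspo3 was read at 2.62, 2.71 and 1.7 CPM in the control libraries, all below the DXM libraries. Its log2 difference between DXM and control was 1.84 (SE 0.504, 3.57-fold), with an unadjusted edgeR p of 0.00348 and an adjusted p of 0.13. Between Rhy and control, Rspo3 differed by 1.12 (SE 0.5, unadjusted p 0.0446, adjusted p 0.422), with Rhy 1 inside the control range. That unadjusted p was under 0.05 in 6 of 16 alternatives.

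By edgeR, 0% of all genes passed an adjusted p of 0.05 between Rhy and control and 0% between DXM and control, where DESeq2 called 33 and 1051 genes and limma on FPKM 0 and 0. At an unadjusted p under 0.05, 1 of 9 members (Rspo3) was called between Rhy and control, beside 11.6% of all genes. Between DXM and control it was 2 of 9 members (Grem1 and Rspo3), beside 18.9% of all genes. Groups did not overlap for 0 of 9 members between Rhy and control (12.3% of all genes), and for 2 of 9 between DXM and control (18.7%). These shares are near the background. Between Rhy and control the genes called were 1953 with all libraries, 1195 without Rhy 2, 2938 without control 3, 2838 without Rhy 1 and 1370 without Rhy 3. The members called were 0 without control 3 or Rhy 2 and 2 without Rhy 1 or Rhy 3. Between DXM and control the genes called were 3189 with all libraries, 1639 without DXM 3, 2061 without control 2 and 3514 without control 3, and 1 member was called without control 2, control 3 or DXM 3. The medians of the members were -0.323 and 0.00265, against -0.0275 and 0.056 over all genes.

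The wider BMP pathway was read from lists that include the members. Of 13 BMP antagonists tested, 7 were higher and 1 lower at an unadjusted p under 0.05 between DXM and model (median log2 difference 0.977), and 0 at an adjusted p. Over all genes 4.89% were higher and 7.69% were called in either direction, which is the background for each list in this comparison. For lists between Rhy and model it is 3.72%, and between model and control 9.62%. Without DXM 3 the number higher came to 4. Between Rhy and model it was 2 higher and 1 lower, and between model and control 0. Nog, which encodes noggin, was read at 13, 4.82 and 8.71 CPM in the DXM libraries and at 2.37, 2.06 and 3.69 CPM in the model libraries. Nog differed by 1.70 between DXM and model (unadjusted p 0.00459), with no overlap.

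Of the BMP ligands, 8 were tested, and no test of the list was run. All 8 had a lower mean in the model group than in the control group, under TMM, RLE and upper-quartile scaling and in DESeq2, with a median of -0.854. This was not particular to the ligands. In edgeR with TMM all 12 general fibroblast markers, all 12 colon epithelial markers and all 6 PDGF ligands and receptors were lower too. Smooth muscle markers went both ways, with 8 higher and 3 lower. With control 3, model 3 and Rhy 1 left out, Bmp5 was higher instead (0.0939) among the ligands that are members. Bmp3 was read at 27, 71.8 and 159 CPM in control 1, 2 and 3 and at 62.4, 65.2 and 69.1 CPM in model 1, 2 and 3. The lower mean of Bmp3 in model thus rested on control 3. Of the 8 ligands, 2 were lower at an unadjusted p under 0.05, Bmp2 and Bmp8a, and 0 at an adjusted p. Bmp8a was read at 2.7, 16.5 and 8.67 CPM in the control libraries and at 2.7, 3.34 and 2.92 CPM in the model libraries, which overlapped (log2 difference -1.64 with a SE of 0.54, unadjusted p 0.0107, adjusted p 0.479). Between DXM and model 2 ligands were higher and 0 lower (median 0.682), Bmp4 and Bmp6. Bmp6 was read at 9.26, 5.11 and 13.1 CPM in the DXM libraries and at 2.59, 2.49 and 3.81 CPM in the model libraries, without overlap (log2 difference 1.62, unadjusted p 0.0276). Between Rhy and model 0 of 8 ligands were called.

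BMP receptors and Smads gave 0 of 11 calls between DXM and model (median 0.115), 0 between model and control, and 1 higher and 1 lower between Rhy and model. The receptor gene Bmpr1a differed by 0.04 between DXM and model (SE 0.276). Bmpr1b was under 0.9 CPM in every library and was higher in Rhy than in model (1.78, unadjusted p 0.0113), and Acvr2b was lower (-0.98, unadjusted p 0.0346). Of 9 BMP target genes tested, 1 was higher and 1 lower between DXM and model (median 0.316), 1 was higher between Rhy and model, and 1 was lower between model and control. Id4 was read at 87.1, 25.2 and 90.1 CPM in the DXM libraries, at 11, 45.9 and 54.2 CPM in the Rhy libraries, and at only 10.2, 11 and 14.5 CPM in the model libraries. Rhy 1 was thus within the model range for Id4, and the DXM libraries were all above it. Id4 differed by 2.50 between DXM and model (SE 0.556, unadjusted p 0.000759, adjusted p 0.622). Smad6, an inhibitory Smad, was read at 29.3, 22.6 and 18.5 CPM in the DXM libraries and at 42.6, 38.8 and 55.3 CPM in the model libraries. Smad6 was lower in DXM without overlap (-0.96, unadjusted p 0.00621), and Id1 differed by 0.55 with overlap (unadjusted p 0.171).

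The wider Wnt pathway was read in the same way. Of 8 Wnt ligands tested, 1 was higher between DXM and model (median 0.642), 1 was higher and 1 lower between Rhy and model, and 1 was higher between model and control. Wnt2b, a stromal ligand that acts through beta-catenin, was read at 6.31, 2.31 and 5.27 CPM in the DXM libraries, at 1.54, 3.59 and 2.94 CPM in the Rhy libraries and at 1.49, 0.91 and 0.834 CPM in the model libraries. Both treated groups were above the model group without overlap, Rhy 1 by the least. Wnt2b differed by 2.09 between DXM and model (SE 0.478, unadjusted p 0.000955, adjusted p 0.622) and by 1.32 between Rhy and model (unadjusted p 0.0171). Wnt6 was read at 1.88, 2.24 and 1.73 CPM in the model libraries, above the control libraries (1.30 on the log2 scale, unadjusted p 0.0411) and above the Rhy libraries (a Rhy difference of -1.37, unadjusted p 0.0337).

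R-spondins and their receptors gave 1 of 7 calls between DXM and model, which was Rspo3 (median 0.0236), and 0 in the other comparisons with the model group. Rspo2 was read at 0.0749, 1.18 and 0.659 CPM in the control libraries, at 1.76, 1.76 and 1.49 CPM in the model libraries, at 0.685, 0.784 and 0.34 CPM in the Rhy libraries and at 0.617, 1.06 and 0.506 CPM in the DXM libraries. These values rest on few reads, from 1 in control 1 to 32 in model 1. For Rspo2 the model group was above each of the other groups without overlap, unlike for Rspo3. Its log2 differences were 1.37 between model and control (unadjusted p 0.0651), -1.47 between Rhy and model (unadjusted p 0.0516) and -1.18 between DXM and model (unadjusted p 0.0989). The R-spondin receptor genes differed little between DXM and model, by 0.02 for Lgr4 (SE 0.217) and -0.22 for Lgr5 (SE 0.617). Rnf43, which encodes an enzyme that removes Wnt receptors, was lower in DXM than in model without overlap (-0.54, unadjusted p 0.153).

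Of 8 secreted Wnt inhibitors tested, 3 were higher between DXM and model (median 0.727), 0 were called between Rhy and model, and 1 was higher between model and control. Sfrp1 was read at 29.8, 20.7 and 32.4 CPM in the DXM libraries and at 15.4, 13 and 11.4 CPM in the model libraries (1.05, SE 0.282, unadjusted p 0.00293). Dkk3 differed by 0.91 between DXM and model (unadjusted p 0.0245), also without overlap. Of 14 Frizzled and Wnt5a receptor genes tested, 2 were higher and 1 lower between DXM and model (median 0.073), with 1 higher between Rhy and model and 1 higher between model and control. Fzd2 was higher in DXM (0.59, unadjusted p 0.023), Fzd3 was lower (-1.35, unadjusted p 0.0341), and the Wnt5a receptor gene Ror2 was higher by 0.44 (unadjusted p 0.147).

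Epithelial Wnt target genes read out the Wnt signal in the crypt. Of 12 tested, 1 was higher between DXM and model (median 0.078), Nkd1, and 0 were called between Rhy and model or between model and control. Nkd1 was read at 38.7, 15.7 and 33.3 CPM in the DXM libraries, of which DXM 2 was within the model range of 13.4 to 17.3 CPM (log2 difference 0.89, unadjusted p 0.0119). Axin2 differed by -0.27 between DXM and model (SE 0.376) and by 0.52 between Rhy and model (SE 0.376), and Myc by 0.66 between Rhy and model (unadjusted p 0.137). Of 6 PDGF ligands and receptors, 1 was higher between DXM and model (median 0.336), Pdgfrb (0.90, unadjusted p 0.0212), and 0 were called in the other comparisons with the model group. Pdgfc was lower in DXM without overlap (-0.81, unadjusted p 0.0658), and the Pdgfra ligand gene Pdgfa differed by -0.05 (SE 0.328).

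Of 11 forkhead and other subepithelial fibroblast factors tested, 7 were higher between DXM and model and 0 lower (median 0.951). Without DXM 1 the number higher came to 3, and without DXM 3 to 4. Between Rhy and model 1 was higher, and between model and control 1 was lower. Gli1, a transcription factor and target of Hedgehog signals that the epithelium sends to the stroma, was read at 9.51, 4.52 and 4.12 CPM in the control libraries and at 2.1, 2 and 1.61 CPM in the model libraries. It was read at 14.1, 3.57 and 13.4 CPM in the DXM libraries and at 1.2, 4.77 and 7.53 CPM in the Rhy libraries. The model libraries were below every control and every DXM library for Gli1, and Rhy 1 was the lowest of all 12 libraries. Gli1 differed by -1.66 between model and control (SE 0.647, unadjusted p 0.0249, adjusted p 0.488) and by 2.43 between DXM and model (SE 0.656, unadjusted p 0.00307, adjusted p 0.622). Foxf1, which encodes a forkhead factor of gut mesenchyme, was 1.01 higher in DXM than in model (unadjusted p 0.00388), without overlap.

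**Figure D3:**
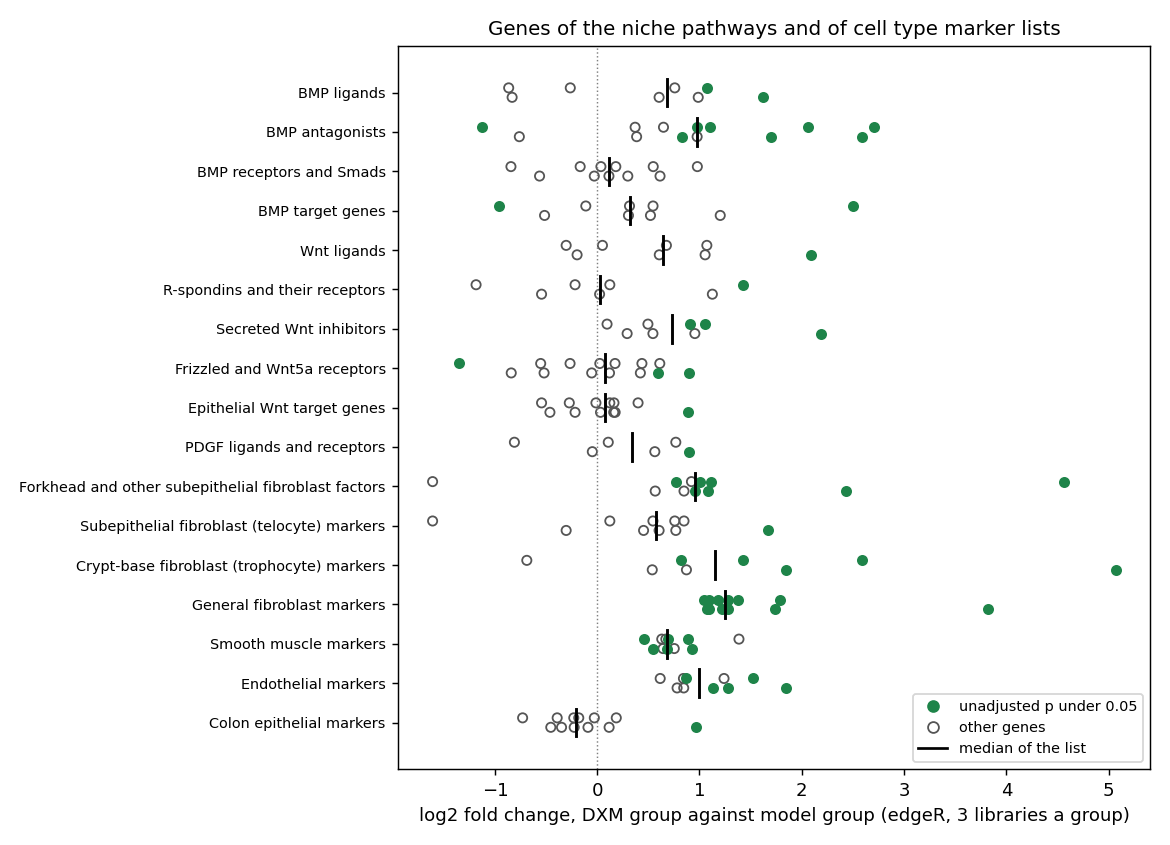
Log2 fold change between DXM and model for each tested gene of 17 lists (circles, filled at an unadjusted p under 0.05), with the median of each list (bar), 3 libraries a group. All 12 general fibroblast markers are filled and lie between 1.05 and 3.82.

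Markers of stromal cells were read beside the members. General fibroblast markers summed to 1818, 1165 and 2394 CPM in DXM 1, 2 and 3 and to 758.6, 753.1 and 668.7 CPM in model 1, 2 and 3. Their sums were 517.8, 1356 and 1983 CPM in the Rhy libraries and 1366, 714.4 and 1072 CPM in the control libraries. Rhy 1 was the lowest of the 12 libraries in this sum and DXM 3 the highest, and DXM 3 was also the highest in Grem1. All 12 of these markers were higher at an unadjusted p under 0.05 in DXM than in model (median 1.25), while 6 were without DXM 3 and 7 without model 3. Between Rhy and model 5 of 12 were higher (median 0.728), and between model and control 0 were called, with a median of -0.527. Col3a1 had the highest CPM of them on average, at a mean of 569 CPM in DXM and 219 CPM in model. The part of the fibroblast markers in the differences of Grem1, Rspo3 and Bmp4 was not tested.

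Crypt-base fibroblast markers, which include Grem1 and Rspo3, gave 5 of 8 higher between DXM and model (median 1.15), 2 higher between Rhy and model and 0 between model and control. They summed to 1707, 370.6 and 326.7 in the control libraries, 906.1, 948.9 and 366.2 in the model libraries, 188.4, 1044 and 690.3 in the Rhy libraries and 505.2, 842.1 and 985.9 CPM in the DXM libraries. Ly6a, which had the highest mean CPM of this list, is also expressed outside fibroblasts, and it was lower in DXM than in model (-0.69, unadjusted p 0.472). Telocyte markers, which include Foxl1, Pdgfra, Bmp5 and Wnt5a, gave 1 of 10 higher between DXM and model (median 0.575) and 0 in the other comparisons with the model group. That gene was F3 (1.67, unadjusted p 0.0027). The telocyte sums were 138.2, 67.59 and 156.7 in the control libraries, 93.87, 90.71 and 97.81 in the model libraries, 61.38, 90.58 and 151 in the Rhy libraries and 142.1, 134.7 and 187.3 CPM in the DXM libraries. No marker of the 3 fibroblast lists was at 0 in any library.

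Muscle and vessel markers were read in the same way. Smooth muscle markers gave 6 of 11 higher between DXM and model (median 0.686), 1 higher between Rhy and model and 0 between model and control. Their sums, led by Myh11 in mean CPM, were 6874, 4054 and 3690 in the control libraries, 5277, 5216 and 4126 in the model libraries, 6340, 7054 and 6874 in the Rhy libraries and 8363, 5694 and 9982 CPM in the DXM libraries. Endothelial markers, led by Pecam1, gave 5 of 10 higher between DXM and model (median 1) and 0 in the other comparisons with the model group. They summed to 82.84, 77.06 and 87.03 CPM in the model libraries and to 220.5, 92.84 and 180 CPM in the DXM libraries. Markers of interstitial cells of Cajal, led by Thbs4, gave 1 of 5 higher between DXM and model and 0 in the other comparisons with the model group.

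Epithelial markers were read as a check of the tissue. The colon epithelial markers, all 12 of them read in every library, summed to 36250, 44870 and 34160 in the control libraries, 26670, 26570 and 37150 in the model libraries, 37140, 30980 and 36340 in the Rhy libraries and 35480, 22860 and 21260 CPM in the DXM libraries. Model 3 was above control 1 and control 3 in this sum, so the groups overlapped. The highest mean CPM over the 12 libraries was that of Krt8, while per gene length Car1 was higher (a median of 4970 FPKM, beside 3340 FPKM for Krt8). All 12 had a lower mean in model than in control, of which 3 passed an unadjusted p of 0.05 and 0 an adjusted p (median -0.373), while 1 was higher between DXM and model (median -0.203) and 0 were called between Rhy and model. Epithelial and smooth muscle markers, which a section of colon holds, were thus both read in every library.

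Other cell types gave few calls. Leukocyte markers, led by Lyz2, gave 1 of 10 higher between DXM and model, 1 lower between Rhy and model and 1 lower between model and control, and they summed to 64.12 CPM in Rhy 1, where Ms4a1 was at 0, against 152.8 CPM or more in every other library. Neuron and glia markers, led by Uchl1, gave 0 of 10 between DXM and model, 1 lower between Rhy and model and 1 higher between model and control. Fat cell markers, led by Pparg, gave 0 of 7 in each of these comparisons, with a median of -1.25 between DXM and model. Their sums were 112.1, 113 and 447.8 CPM in the model libraries, of which model 3 stood apart, and 141.5, 128.5 and 64.42 CPM in the DXM libraries. Adipoq, Plin1 and Lep were at 0 in control 1 and model 1. Mesothelial markers, of which 2 of 5 were tested and Msln had the highest mean CPM, gave 0 calls, and Upk3b, Wt1 and Lrrn4 were at 0 in control 1 and DXM 2. Colon position genes, led by Hoxb13, gave 0 of 7 calls in each of these comparisons (median 0.473 between DXM and model).

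**Figure D4:**
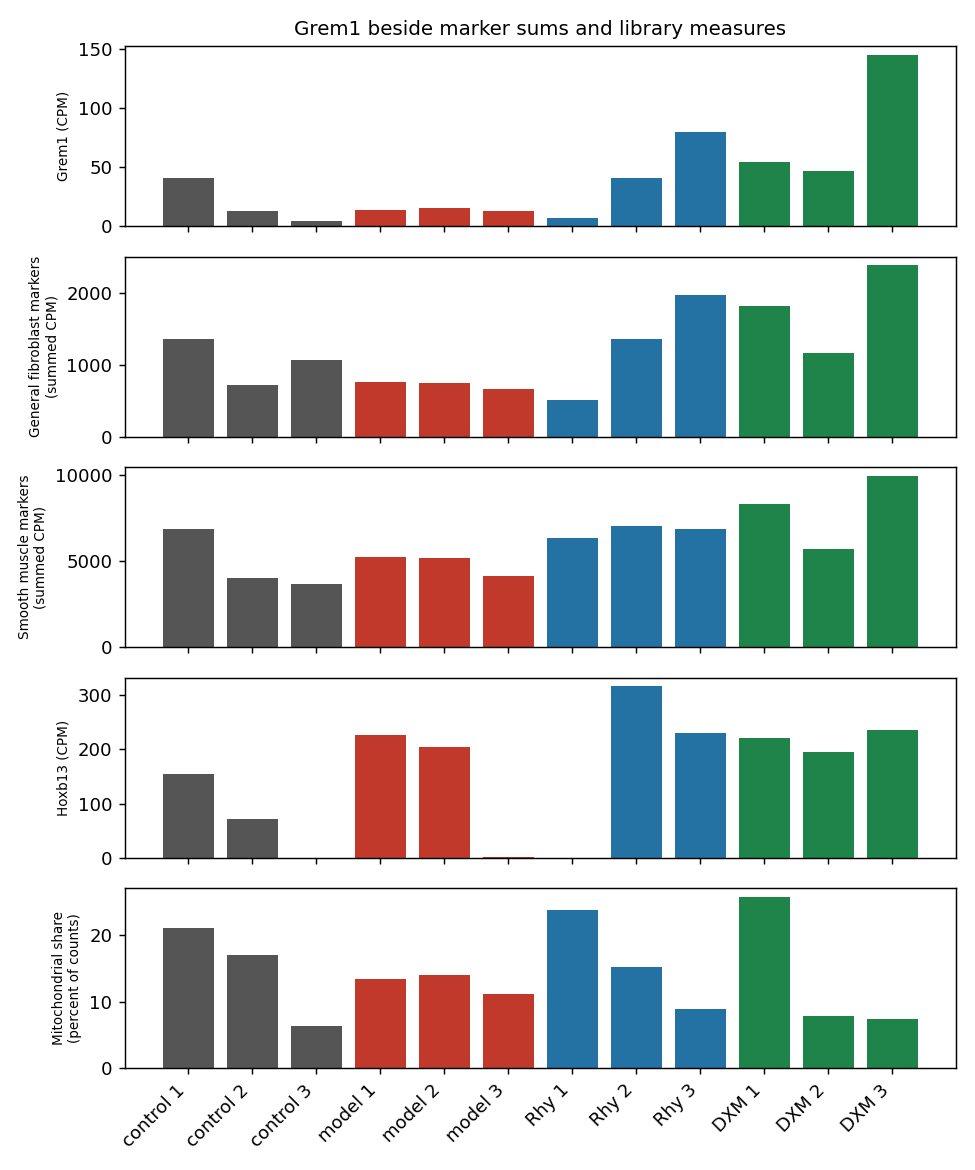
Grem1 CPM, summed CPM of general fibroblast and smooth muscle markers, Hoxb13 CPM and the mitochondrial share (percent of counts) in each of the 12 libraries. Grem1 and the fibroblast sum are both highest in DXM 3 (145 and 2394 CPM), and Hoxb13 is near 0 in control 3, model 3 and Rhy 1.

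Pairs of members were compared across the 12 libraries, and no test of sets was run. The values that follow are Pearson r of log2 CPM, given as a description, since the points share libraries, groups and the make-up of the tissue. Pdgfra and Foxl1 had r of 0.925, and 0.951 after group means were taken off. Grem1 and Rspo3 had r of 0.886, and 0.792 within groups. Bmp4 and Foxl1 had 0.869 and Bmp5 and Foxl1 0.819, while Wnt5a and Grem1 had -0.29. Bmp5 and Wnt5a had 0.709, and 0.87 within groups, Chrd and Bmp2 had 0.648, and Grem1 and Bmp4 had 0.6. Bmp2 and Rspo3 had 0.499 over all libraries and 0.905 within groups.

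With members removed from the marker lists, Grem1 had r of 0.936 with the crypt-base fibroblast markers and 0.473 with the telocyte markers over 12 libraries. Rspo3 had 0.918 and 0.381. Pdgfra ran the other way, with 0.434 for the crypt-base fibroblast markers and 0.917 for the telocyte markers, and Foxl1 had 0.565 and 0.897. The crypt-base list was not the only one with a high r: Grem1 had 0.861 with Cajal cell markers, 0.841 with general fibroblast markers and 0.799 with smooth muscle markers, and within groups 0.936 with leukocyte markers beside 0.886 with the crypt-base list. Rspo3 had 0.845 with smooth muscle markers and 0.842 with general fibroblast markers. Hoxb13 had r of 0.755 with Grem1, 0.716 with Rspo3, 0.769 with Chrd, 0.635 with Bmp2, 0.301 with Bmp4, 0.133 with Bmp5, -0.33 with Wnt5a, 0.152 with Pdgfra and 0.2 with Foxl1. Within groups these were 0.806, 0.796, 0.832, 0.823, 0.23, 0.087, -0.358, 0.0636 and 0.143, in the same order. With the list of colon position genes Rspo3 had 0.828 over 12 libraries and 0.882 within groups. Bmp2 had 0.584 and 0.889 with that list, and Pdgfra had 0.00363 and -0.0929. The part of the position along the colon in the levels of the members was not tested.

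**Figure D5:**
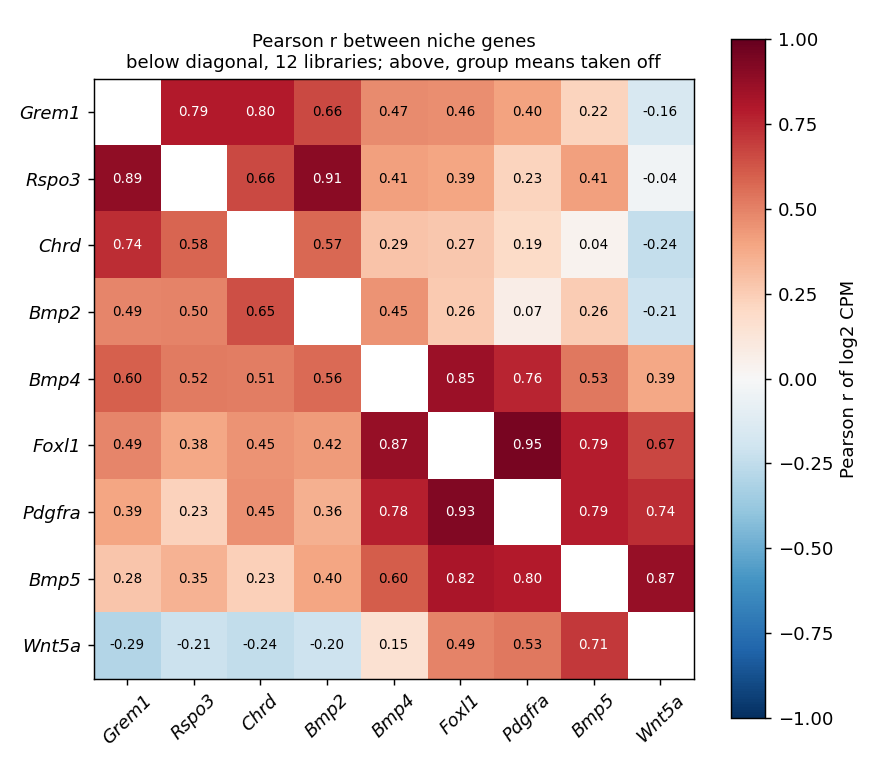
Pearson r of log2 CPM between members, below the diagonal over 12 libraries and above it after group means were taken off. Pdgfra and Foxl1 (0.925) and Grem1 and Rspo3 (0.886) are the pairs with the highest r over 12 libraries.

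Among 16895 tested genes outside the members, the genes most like each member over the 12 libraries were found by the same r. For Grem1 they were Fxyd2 (0.956) and 2900041M22Rik (0.954), and for Chrd they were Dancr (0.964) and Etnppl (0.96). For Rspo3 they were Chrdl1 (0.977), which encodes a BMP antagonist, and Eln (0.975), which encodes elastin. Bmp7 was the most like both Foxl1 (0.951) and Pdgfra (0.948), followed by Lamb1 (0.945) and Gm44985 (0.925). For Bmp5 they were Igsf10 (0.966) and Mmp2 (0.896), and for Bmp4 they were Aard (0.933) and Ndufa4l2 (0.929). For Bmp2 they were 9130204K15Rik (0.926) and B4galt1 (0.917), and for Wnt5a they were Ighv1-26 (0.883) and Ehmt1 (0.861).

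Ratios of FPKM within a library compare an antagonist with its ligand or with a stromal marker. Grem1 over Bmp4 was 0.608, 1.15 and 3.02 in DXM 1, 2 and 3 and 0.509, 0.595 and 0.378 in model 1, 2 and 3. In the Rhy libraries it was 0.273, 1.08 and 1.53, and in the control libraries 0.617, 0.53 and 0.0967. The DXM libraries were above the model libraries, DXM 1 by little. Grem1 over Bmp2 was 0.618, 1.67 and 3.06 in the DXM libraries and 0.433, 0.447 and 0.713 in the model libraries, where DXM 1 lay below model 3 and the groups overlapped. Grem1 over Pdgfra was 3.59, 2.86 and 8.76 in the DXM libraries, 1.55, 1.8 and 1.12 in the model libraries, 1.22, 5.42 and 5.37 in the Rhy libraries and 1.99, 1.75 and 0.201 in the control libraries. All 3 DXM libraries and 2 of 3 Rhy libraries were thus above every model and control library in Grem1 per Pdgfra. Foxl1 over Pdgfra ran only from 0.256 in DXM 2 to 0.48 in Rhy 2 over the 12 libraries.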

How the data were processed

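RNA-Seq libraries of colon sections from 12 mice were used, 3 in each of 4 groups. The deposited count table holds read counts per gene that the authors made with HISAT2 2.0.5 on build mm10 and featureCounts 1.5.0-p3, with strandedness not stated, and the authors name DESeq2 1.16.1 for their own tests. The FPKM values were made by the authors from the same counts, scaled by gene length and library size, and deposited beside them. Of 54532 genes, 24548 had no count in any library and 16904 passed filterByExpr with a minimum count of 10. Depth was 14346478 to 17749716 counts per library, and a count of 0 allows up to 3 counts.

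All 12 libraries were fitted together in edgeR 4.0.16 (R 4.3.3) with TMM scaling and quasi-likelihood F tests, and p-values were adjusted over 16904 genes by Benjamini and Hochberg. Model, Rhy and DXM were compared with control, and Rhy and DXM with model. SE is the log2 difference divided by the square root of F. Log2 CPM used a prior count of 2, and printed CPM used none. Groups do not overlap where every library of one lies beyond every library of the other. Exact permutation tests of 3 against 3 libraries cannot give p below 0.1. The scripts were tested on simulated data.

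Alternatives were RLE and upper-quartile scaling, no filter on low counts, a fit of only the groups compared, a block on library number, DESeq2 1.42.0, limma 3.58.1 on log2(FPKM + 1) and log2(FPKM + 0.1), model 1 and model 2 summed as 1 library, and each library left out. Leaving out control 3, model 3 and Rhy 1 together was added after seeing the data.

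The 9 members and all lists were chosen with earlier results of these data known. The pathway lists are BMP ligands, BMP antagonists, BMP receptors and Smads, BMP target genes, Wnt ligands, R-spondins and their receptors, secreted Wnt inhibitors, Frizzled and Wnt5a receptors, epithelial Wnt target genes, PDGF ligands and receptors, and forkhead and other subepithelial fibroblast factors. The marker lists are telocyte, crypt-base fibroblast, general fibroblast, smooth muscle, interstitial cell of Cajal, colon epithelial, endothelial, leukocyte, enteric neuron and glia, fat cell and mesothelial markers and colon position genes. From each pathway list the text names the 2 genes outside the members with the smallest p in a comparison of control, Rhy or DXM with model. A gene that this rule names is not reported here. It also names Lgr4, Lgr5, Bmpr1a, Ror2, Pdgfa, Id1 and Axin2, and the gene of each marker list with the highest mean CPM over the 12 libraries, without regard to gene length. Promoters were cut from a RefSeq file of GRCm38.p6.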

Additional observations from a re-analysis of the deposited data

How the results depend on the processing

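Under 16 alternatives, all 144 log2 differences of the 9 members between DXM and model kept their direction, as did 133 of 144 between model and control and 132 of 144 between Rhy and model, with 0 adjusted calls. Against control, Grem1 and Rspo3 kept theirs in 32 of 32 values for Rhy and 32 of 32 for DXM, with 1 adjusted call, Rspo3 in DESeq2 (1.79, adjusted p 0.0156). Between DXM and model, Grem1 ran from 1.89 to 2.87 (unadjusted p under 0.05 in 15 of 16), Rspo3 from 0.85 to 1.73 (14 of 16) and Bmp4 from 0.64 to 1.28 (12 of 16).

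Between model and control, genes at an adjusted p under 0.05 were 1 with no filter on low counts, 1 in a fit of only these groups, 46 in DESeq2 and 0 to 1 with a library left out (1 without model 3). Members at an unadjusted p under 0.05 were 2 with no filter, 2 in DESeq2, 0 with upper-quartile scaling, 0 with the replicate block, 0 in limma on log2(FPKM + 1), 0 on log2(FPKM + 0.1), 0 with model 1 and model 2 summed, and 0 to 3 with a library left out (3 without control 2). Genes at an unadjusted p under 0.05 were 866 with model 1 and model 2 summed, 2686 with control 3, model 3 and Rhy 1 left out, and 888 (without model 1) to 2811 (without control 3) with a library left out. Wnt5a was -0.0514 with RLE scaling, -0.000807 in a fit of only these groups, -0.0542 in DESeq2, and -0.26 (without control 2) to 0.49 (without control 3). Grem1 was 0.00106 in limma on log2(FPKM + 0.1) and -0.98 to 0.72 (without control 1) with a library left out. Chrd was -1.16 to 0.10 (without control 1), and Bmp5 was 0.0939 with control 3, model 3 and Rhy 1 left out.

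Between Rhy and model, genes at an unadjusted p under 0.05 were 972 with no filter, 283 with model 1 and model 2 summed, 1453 with control 3, model 3 and Rhy 1 left out, and 289 (without model 1) to 1066 (without Rhy 1). Genes at an adjusted p under 0.05 were 5 in DESeq2, 2 in limma on log2(FPKM + 0.1) and 0 to 1 with a library left out (1 without model 3). Members at an unadjusted p were 1 with no filter, 1 with control 3, model 3 and Rhy 1 left out, and 0 to 2 with a library left out (2 without Rhy 1). Pdgfra was 0.00704 with RLE scaling, 0.00693 in DESeq2, 0.42 with control 3, model 3 and Rhy 1 left out, and -0.54 to 0.25 with a library left out. Chrd was -0.0167 with those 3 left out and -0.29 to 0.34 with 1 left out. With 1 library left out, Foxl1 was -0.21 to 0.72 and Bmp5 -0.70 to 1.05, both lowest without Rhy 3, and with those 3 left out they were 0.84 and 0.97.

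Between DXM and model, members at an unadjusted p under 0.05 were 5 with no filter, 8 in a fit of only these groups, and 1 (without DXM 3) to 4 (without DXM 2) with a library left out. Genes at an unadjusted p were 2514 in a fit of only these groups, 736 with model 1 and model 2 summed, and 537 (without DXM 3) to 1594 (without DXM 2). Genes at an adjusted p were 2 in a fit of only these groups, 52 in DESeq2, 2 in limma on log2(FPKM + 0.1) and 2 with control 3, model 3 and Rhy 1 left out.

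Between Rhy and control, genes at an adjusted p under 0.05 were 1 with no filter and 33 in DESeq2. Members at an unadjusted p were 2 with no filter, 0 in a fit of only these groups, 0 in limma on log2(FPKM + 1), 0 on log2(FPKM + 0.1), 0 with model 1 and model 2 summed, and 0 to 2 with a library left out. Genes at an unadjusted p were 999 in a fit of only these groups, 3715 with control 3, model 3 and Rhy 1 left out, and 1195 (without Rhy 2) to 2938 (without control 3). Between DXM and control, genes at an adjusted p were 13 with no filter, 1051 in DESeq2 and 0 to 4 with a library left out (4 without DXM 1). Members at an unadjusted p were 1 with the replicate block and 1 to 2 with a library left out, and genes were 1639 (without DXM 3) to 4075 (without control 1).

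Scaling moved the direction of calls. At an unadjusted p under 0.05, 53.1% of calls between model and control were higher with TMM and 40.5% with RLE scaling. Between DXM and model it was 63.6% with TMM and 75.4% with upper-quartile scaling, and between DXM and control 46% and 61.2%. Same-number libraries of different groups had correlations of their deviations from -0.31 to 0.363. Those of control and model were 0.21, 0.104 and 0.363, and those of control and Rhy were -0.31, -0.114 and -0.0458. Libraries of different numbers had correlations from -0.406 to 0.401. The same-number values thus show no clear pairing across the 4 groups, though groups of 3 cannot exclude one. The block is given only here and beside Bmp2. Position along the colon, the make-up of the sections and the likeness of model 1 and model 2 were not tested as causes.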

Other observations

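Hoxd13, a gene of the most distal gut, was read at 5.54, 46.9 and 0 CPM in control 1, 2 and 3, where the 0 allows up to 3 counts, and at 102, 103 and 0.0596 CPM in model 1, 2 and 3. It was read at 0.342, 51.8 and 115 CPM in the Rhy libraries and at 91.9, 23.2 and 169 CPM in the DXM libraries. Control 3, model 3 and Rhy 1 were the lowest of the 12 libraries in Hoxd13, as they were in Hoxb13.

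Rspo3 over Wnt5a in FPKM was 2.19, 1.02 and 2.61 in the DXM libraries and 0.71, 0.653 and 0.379 in the model libraries, with no overlap. It was 0.538, 1.89 and 1.28 in the Rhy libraries and 0.611, 0.851 and 0.201 in the control libraries, so that Rhy 2, Rhy 3 and the DXM libraries were above all others. Rspo3 over Pdgfra was 0.843, 0.368 and 0.906 in the DXM libraries and 0.587, 0.557 and 0.246 in the model libraries, where DXM 2 lay below model 1 and model 2 and the groups overlapped.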
